A study of Mus musculus with 2 samples.

Results

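The stretch of mouse chromosome 2 that runs from beyond Pax6 to beyond Kcna4 (chr2:105850000-107500000, mm9) was examined for Rad21, a subunit of the cohesin ring, in RAG cells, cells of a mouse renal adenocarcinoma that served the study as its line with Pax6 off. Its members were every fixed 1 kb window with at least 3 probes, which gave 1365 of the 14947 windows on the array and 15652 of its 170542 usable probes. The series holds 1 group of 2 tiling arrays, replicates 1 and 2, each from its own flask of untreated cells, with ChIP DNA and input DNA of that flask labelled in different dyes on the same array. No control antibody or second cell type was part of the comparison, so all values compare the dyes of an array, positions or the arrays with each other. The stretch is called the flank below, and 285 of its 1650 fixed windows held too few probes to be measured.

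The sign of a ratio needs care here. Per the labels, Cy3 carried input DNA and Cy5 carried ChIP DNA on both arrays. All values below are log2 ratios of Cy3 over Cy5, centred on the array's median, and so run against the labels. The table of log2 values that the authors deposited runs the same way as the values below, with Pearson r of 0.964 and 0.962 across probes against the running median of log2 Cy3/Cy5 on replicates 1 and 2. Over the whole array, 78 windows held an exact match to the core motif of CTCF, of which 44 were called higher in Cy3 and 0 higher in Cy5 by limma. The labels thus oppose the deposited table on which dye held the ChIP DNA, so both directions are counted and each is named by its dye.

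Cohesin holds DNA molecules together in a ring and is known to extrude chromatin loops until it meets CTCF, a zinc finger protein that binds a directional DNA motif. Cohesin therefore collects at many CTCF sites, and loops form mostly between sites whose motifs point towards each other. Promoters and enhancers in use can also hold cohesin without CTCF. The flank is poor in genes. GENCODE M1 places 20 genes in it, of which 5 are protein-coding and 9 are pseudogenes, and the protein-coding genes cover 23.2% of its bases.

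In 7 places the flank held regions higher in Cy3, called from a running median of probe ratios over both arrays, and these are named sites A to G in map order. In the sequences, the 12-base CTCF core motif was searched on both strands within 500 bp of each summit, with at most 1 mismatch, and sites C, E, F and G held a match. The following 4 stretches are shown on the strand that reads the motif, with the match in capitals and 24 bases on either side, since the strand of these motifs is what orders the sites. They lie at chr2:106034745-106034804, chr2:106271352-106271411, chr2:106795936-106795995 and chr2:106822821-106822880 (mm9), on the minus, plus, minus and plus strand.
site C: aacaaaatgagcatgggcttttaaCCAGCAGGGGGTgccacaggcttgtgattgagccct
site E: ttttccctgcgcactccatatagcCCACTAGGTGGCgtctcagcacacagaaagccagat
site F: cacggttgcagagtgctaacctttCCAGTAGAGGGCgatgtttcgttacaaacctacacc
site G: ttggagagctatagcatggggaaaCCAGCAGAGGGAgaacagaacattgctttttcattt
Sites A, B and D held no match. Site A had the highest running median of the 7 and is therefore shown with 300 bases around its summit (chr2:105922117-105922416, plus strand), with the 60 bases of the probe at the summit in capitals.
site A: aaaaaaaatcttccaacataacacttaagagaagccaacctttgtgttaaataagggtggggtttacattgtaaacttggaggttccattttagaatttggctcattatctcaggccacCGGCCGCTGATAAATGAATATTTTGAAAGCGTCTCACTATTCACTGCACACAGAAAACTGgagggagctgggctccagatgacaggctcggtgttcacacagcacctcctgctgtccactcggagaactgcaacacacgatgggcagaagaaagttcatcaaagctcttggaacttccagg

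Sites A and B lie close together in DNA that is intergenic in GENCODE M1, and the nearest start of a protein-coding gene is that of Dnajc24. They lie between the noncoding entry BC048594 and the protein-coding entry Dcdc5, which share the current symbol Dcdc5. Site A (chr2:105921336-105922886, mm9) lies 379 kb beyond the end of Pax6 and spans 1551 bp and 24 probes. Its mean log2 Cy3/Cy5 was 1.53 on replicate 1 and 1.54 on replicate 2, or 1.54 ± 0.0022 (SD, n = 2). All 24 probes were above 0 on replicate 1 and 23 on replicate 2, and the median processed intensities were 1661 in Cy3 and 673 in Cy5 on replicate 1 and 1374 and 662 on replicate 2. The region call used these same probes, so counts of probes above 0, here and below, describe a site and are no separate support. By its running median of 2.23 it ranked 11 among the 211 regions higher in Cy3 on the whole array. Site B (chr2:105925404-105927056) begins 2.52 kb further on and was lower, with 0.84 and 1.02 on the 2 arrays (0.93 ± 0.13). The DNA between them was raised as well. Of the 6 consecutive windows from chr2:105921000 to 105926999, 5 were called higher in Cy3 and the remaining one, at chr2:105925000-105925999, had 0.25 and 0.89 with an adjusted p of 0.0603 (limma). On replicate 2 alone, site A reached on to chr2:105924317, whereas on replicate 1 alone it ended at 105922766.

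Sites C and D lie before and within the GENCODE M1 entry Dcdc5, a gene of the doublecortin domain family of microtubule-binding proteins. Site C, too, lies between the entries BC048594 and Dcdc5. The summit of site C (chr2:106034305-106035264) falls in an annotated exon of the pseudogene Gm13993, 27.2 kb before the start of Dcdc5. It measured 1.38 on replicate 1 and 0.90 on replicate 2 (1.14 ± 0.35), which was the widest spread between the arrays among the 7 sites. Site D (chr2:106196027-106196566) lies in an intron of Dcdc5, 134 kb past its start, and measured 1.11 and 0.98 (1.05 ± 0.095). All 9 of its probes were above 0 on both arrays.

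Site E (chr2:106271330-106272143) lies in intergenic DNA past the end of Dcdc5 and was the lowest of the sites, with 0.83 and 0.75 (0.79 ± 0.059). Its running median of 0.72 was near the threshold of 0.62, it ranked 198 of 211, and it was not called on replicate 1 alone. All 10 of its probes, which the call had used, were above 0 on both arrays.

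Sites F and G sit on either side of 2700007P21Rik, now named Arl14ep, which encodes an effector of a small GTPase. Site F (chr2:106795422-106796304) lies beyond the 3′ end of the gene and measured 1.89 and 1.62 (1.75 ± 0.20), with all 11 probes above 0 on both arrays. It ranked 19 of 211 by its running median of 2.11. Site G (chr2:106822637-106823236) lies 8.57 kb upstream of the gene's start and measured 0.92 and 0.88 (0.90 ± 0.032). It was the only site with a probe at saturation, and 411 of the 1001 bases around its summit carried no probe.

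**Figure D1:**
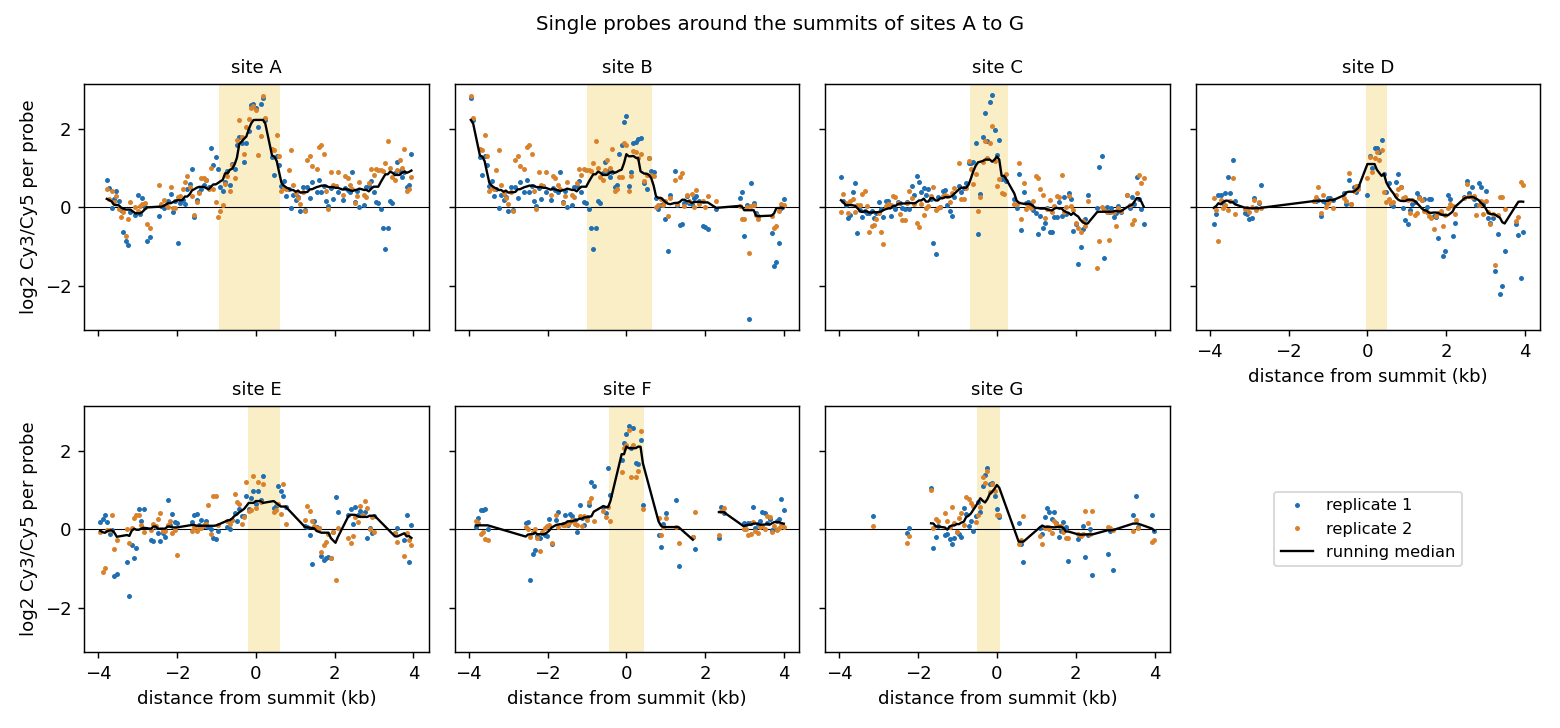
Log2 Cy3/Cy5 of single probes (points, replicate 1 in blue and replicate 2 in orange) against the distance from the summit in kb for sites A to G, with the running median over both arrays as a line and the called span shaded. Both arrays, from which the summits were placed, rise near each summit. At sites D and G the probe at the summit itself was lower than most probes of the called span. Between sites A and B the running median stays above 0 while single probes scatter to either side of it.

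Each array was also called without the other. Replicate 1 alone gave 6 regions in the flank, and their means on replicate 2 ranged from 0.72 to 1.53 with a median of 1.14. Replicate 2 alone gave all 7, and their means on replicate 1 ranged from 0.77 to 1.99 with a median of 0.98. No region called on one array had a mean at or below 0 on the other. Averaged over the 7 sites, probes within 250 bp of a summit measured 1.52 on replicate 1 and 1.29 on replicate 2. Probes 250 to 500 bp away measured 0.96 and 0.91, and those 1000 to 2000 bp away measured 0.078 and 0.23. The summits were placed at the highest running median of these same probes, so a fall with distance is built in.

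The region call sets no error rate, and the same threshold gave 61 regions in the flank, of 203 on the array, in the direction of Cy5. That count moved with the settings, from 7 at a stricter null quantile and 19 with at least 6 positions to 136 with mode centring and 204 at a looser null quantile. Those 61 were shorter, with a median length of 300 bp against 883 bp for the 7 sites, and shallower, with a median extreme of -0.74 against 1.29. At the threshold fitted to the Cy5 direction itself (a running median below -1.098), 2 of them were called, of 5 such regions on the array. One, at chr2:107215157-107215396, measured -1.79 on replicate 1 and -0.43 on replicate 2 and was called on replicate 1 alone. The other, at chr2:107292586-107292945, measured -0.99 and -1.21 and was called on replicate 2 alone. Neither was called on both arrays alone. The count of 2 was likewise unstable, at 0 with normexp, loess, the deposited values and GC correction, and 5 and 6 on single arrays.

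The motif strands in map order were minus at site C, plus at E, minus at F and plus at G. Sites E and F face each other, with 525 kb between their motifs, and all of Mpped2 lies between them. Sites C and E point away from each other across 237 kb that holds the protein-coding entry Dcdc5. Sites F and G point away from each other across 26.9 kb that holds 2700007P21Rik. The matches of E and F were exact, and those of C and G had 1 mismatch. The matches lay 111 bp (F), 158 bp (E), 220 bp (C) and 296 bp (G) from the summits. A summit is the highest running median, and single probes can peak elsewhere. At site G the highest probe lay at -240.5 bp from the summit (1.58 and 1.49), and the match, too, lay before the summit. The strength of the match did not follow the height of the site, since the exact matches belonged to the lowest site, E, and to F, while the highest running median, at A, came with no match.

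Of the 7 sites, 4 held the motif, or 57.1% (95% exact binomial interval 18.4 to 90.1%, for counting error only). Of the 41 regions in the rest of the tiled chromosome 2 segment 29 held it (70.7%), and of all 211 regions 133 did (63.0%). Among all 14947 windows of 1 kb, 7.72% held a match of this kind. Most matches in the flank lay in windows that were not raised. Of the 64 flank windows with a match, 5 were called higher in Cy3 (7.81%) and 8 higher in Cy5, where 13.2% of all flank windows were called higher in Cy5. On the whole array, 187 of 1154 windows with a match (16.2%) were called higher in Cy3 and 33 higher in Cy5. Only 4 flank windows held an exact match. Those at sites E and F were called, whereas the window at chr2:106923000-106923999 measured 0.48 and 0.10 (0.29 ± 0.27, adjusted p = 0.173, limma) and that at chr2:107016000-107016999 measured 0.065 and -0.045 (0.010 ± 0.078, adjusted p = 0.963, limma).

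Over the windows, 14 of 1365 were called higher in Cy3 by limma at an adjusted p below 0.05, or 1.03%, against 3.69% of all windows on the array. The rest of the tiled chromosome 2 segment (chr2:103500000-105850000) had 105 of 2052, or 5.12%. Of the 14 windows, 10 overlapped a site. The sites together touched 14 flank windows, or 1.03%, where regions higher in Cy3 touched 3.27% of all windows. The log2 values of the called windows ran from 0.42 to 1.79 with a median of 0.72. The highest was chr2:105922000-105922999 in site A, with 1.78 on replicate 1 and 1.81 on replicate 2 (adjusted p = 0.000168, limma). The next was chr2:106795000-106795999 in site F, with 1.56 and 1.13 (adjusted p = 0.000838, limma). It was followed by chr2:105926000-105926999 in site B (1.25 and 1.03), chr2:106034000-106034999 in site C (1.26 and 0.90) and chr2:106796000-106796999 in site F (0.98 and 0.94).

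Each of the 7 sites overlapped at least 1 window called higher in Cy3, where both calls rest on the same probe values. The 4 called windows outside the sites were low. A pair of them lies between sites A and B (0.58 ± 0.36 and 0.43 ± 0.12). The other two were chr2:105904000-105904999 before site A, with 0.32 and 0.64, and chr2:106755000-106755999 past the end of Mpped2, with 0.34 and 0.56 over 5 probes. The called window with the weakest support was chr2:105924000-105924999 (0.43, adjusted p = 0.0442, limma), and the first to miss the threshold was the window in site B given above (0.57, adjusted p = 0.0603, limma).

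**Figure D2:**
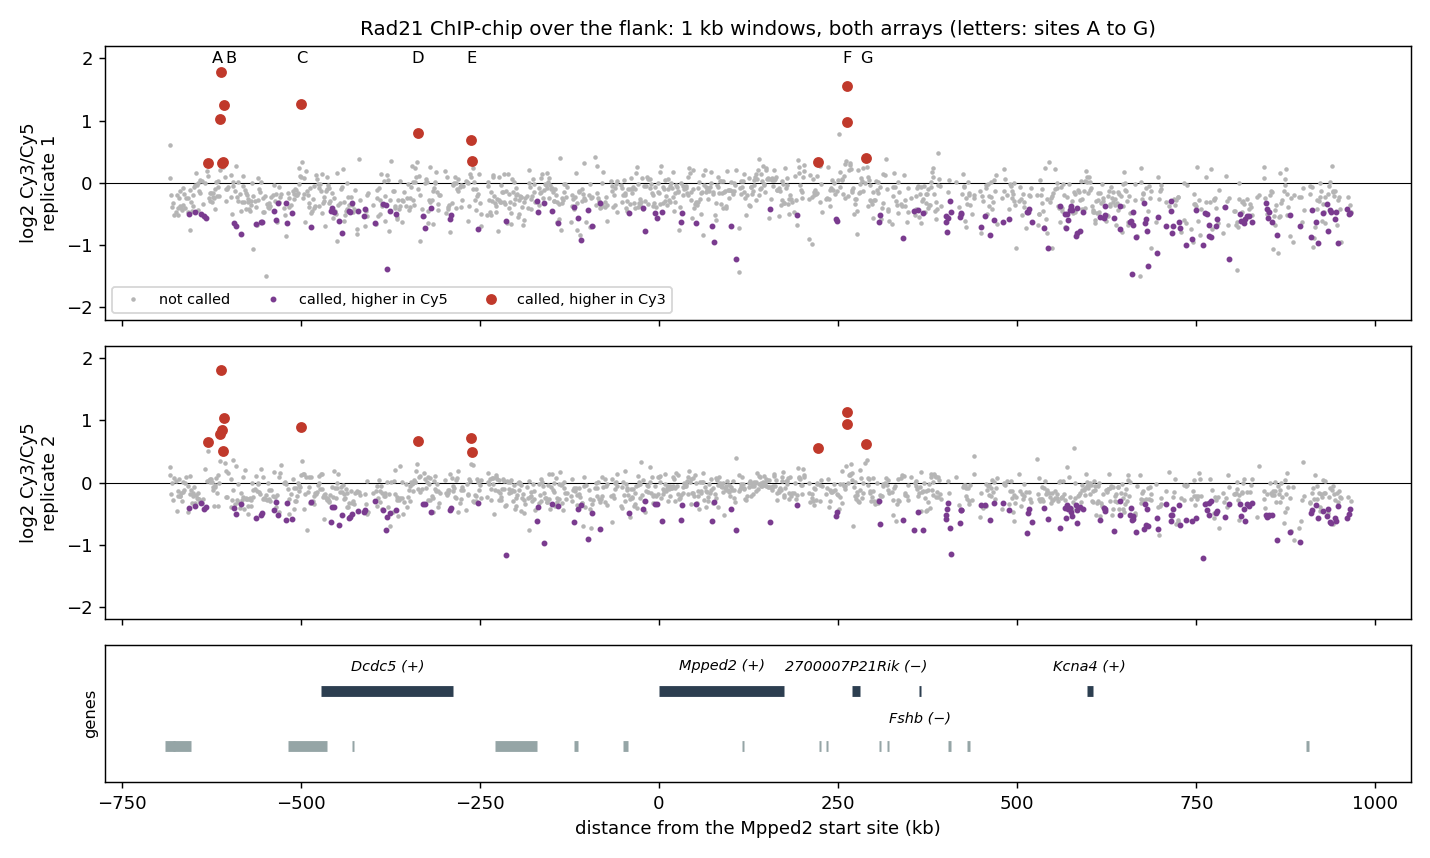
Mean log2 Cy3/Cy5 of each 1 kb window on replicate 1 (top) and replicate 2 (middle) against the distance from the start of Mpped2 in kb, with protein-coding genes (dark) and other genes (grey) below and letters for sites A to G. The 14 windows called higher in Cy3 lie between the first and last site or just before the first, none lies within Mpped2 or from Fshb to Kcna4 and beyond, and the 180 windows called higher in Cy5 grow dense on the right.

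The spacing of the sites was wide and uneven. In the part of the chromosome 2 segment before the flank, 41 regions higher in Cy3 lay at 17.4 per Mb, with a median interval of 42.9 kb between neighbours and a longest interval of 198 kb. The flank held 7, or 4.24 per Mb, and per 1000 measured windows it held 5.13 against 20.0. The whole array had 14.1 per 1000 windows. The count in the flank rose to 11 with normexp, 12 with loess and 16 with GC correction. The count before it rose as well, to 61, 66 and 65, so that the densities were 6.67 against 26.0, 7.27 against 28.1 and 9.70 against 27.7 per Mb. A pair of intervals in the flank exceeded every interval before it. One ran for 523 kb from site E to site F and takes in Mpped2, with 468 measured windows, of which 1 was called higher in Cy3 and 30 higher in Cy5. The other ran for 677 kb from site G to the end of the tiled segment and takes in Fshb and Kcna4, so its true length is unknown. With loess and with GC correction the longest interval in the flank was 523 kb, and the longest before it 174 kb. These densities are counts along 1 chromosome and were not tested.

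The last 677 kb held no region higher in Cy3. Its 506 measured windows averaged -0.36 on replicate 1 and -0.25 on replicate 2, and the highest reached 0.29. By limma 0 of them were called higher in Cy3, and 1 was at an unadjusted p under 0.05. The absence depended on the normalization, since 2 regions were called there after loess and 3 after a correction for GC content.

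No start window of the 5 entries annotated as protein-coding passed the test in either direction. The start of BC048594, a noncoding entry that shares the current symbol Dcdc5, is given below. At Dcdc5 the window with the annotated start measured -0.49 and -0.11 (-0.30 ± 0.27, adjusted p = 0.162, limma). At Mpped2, which encodes a metallophosphoesterase, it measured -0.16 and 0.093 (-0.032 ± 0.18, adjusted p = 0.880, limma), and the nearest site lies 262 kb away. At 2700007P21Rik it measured -0.020 and 0.20 (0.091 ± 0.16, adjusted p = 0.620, limma), between sites F and G. The start of Fshb, the beta subunit of follicle-stimulating hormone, had -0.64 on replicate 1 and 0.17 on replicate 2 (-0.24 ± 0.58, adjusted p = 0.439, limma), so that the arrays differed in sign. The start of Kcna4, a voltage-gated potassium channel, had 0.096 and -0.062 (0.017 ± 0.11, adjusted p = 0.938, limma), 308 kb from site G.

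Over the gene bodies, the means were below 0 on both arrays for each of these genes. So was the mean of the whole flank, at -0.26 and -0.18. Of all flank windows 13.2% were called higher in Cy5 and 1.03% higher in Cy3. On the whole array these shares were 5.43% and 3.69%. Dcdc5 averaged -0.29 and -0.19 over 154 windows, of which 1 was called higher in Cy3 (site D) and 22 higher in Cy5. Mpped2 averaged -0.16 and -0.10 over 171 windows, of which 0 were called higher in Cy3 and 9 higher in Cy5. Kcna4 averaged -0.11 and -0.093 over 9 windows with no call in either direction. Among the 18 of 20 annotated genes whose start could be measured, the only start called higher in Cy3 was that of BC048594, at 0.48 and 0.46 (adjusted p = 0.0285, limma). That start lies just before the first window of the flank. BC048594 shares the current symbol Dcdc5 with the protein-coding entry, so 1 annotated start under that name was called and the other was not. The 4 starts called higher in Cy5 belonged to noncoding transcripts and pseudogenes, Gm14013, Gm14015, Gm14014 and Gm13900.

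In the opposite direction, 180 of the 1365 flank windows (13.2%) were called higher in Cy5, against 5.43% of all windows on the array. Their shift was small, with a median of -0.52, and 3 of them passed 1 log2 unit. The lowest were chr2:107292000-107292999 with -0.99 and -1.21 (adjusted p = 0.000983, limma), chr2:107193000-107193999 with -1.47 and -0.61 (adjusted p = 0.0172, limma) and chr2:107215000-107215999 with -1.34 and -0.69 (adjusted p = 0.00898, limma). They rested on 6, 5 and 10 probes. At the threshold, the window at chr2:107247000-107247999 was called with -0.46 (adjusted p = 0.0497, limma) and that at chr2:106441000-106441999 was not with -0.48 (adjusted p = 0.0506, limma).

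The whole flank was shifted in this direction. Its windows averaged -0.26 on replicate 1 and -0.18 on replicate 2 (-0.22 ± 0.055), whereas the rest of the chromosome 2 segment averaged -0.037 and -0.011 and all other windows of the array -0.046 and -0.029. The flank was lower than the rest on both arrays, and with 2 arrays no exact test of this difference can go below p = 0.5. Across flank windows the arrays correlated with Pearson r of 0.45 and Spearman rho of 0.37, compared with 0.70 and 0.54 over the rest of the segment. These are correlations across windows, which are not independent replicates.

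GC content moved with the shift. Flank windows averaged 38.7% GC and those in the rest of the segment 42.0%, and 83.8% of flank probes were well above background in both dyes on both arrays against 91.4%. Probe signals were lower in the flank as well, with Cy3 medians of 544.5 and 710 on the 2 arrays against 1055 and 1340. In Cy5 the medians were 1820 and 2156 against 2914.5 and 3521. The parts of signal and GC content in the shift were not tested. The windows called higher in Cy5 averaged 34.7% GC, the uncalled windows 39.3% and those called higher in Cy3 41.3%. Over 17 steps of 100 kb, the last of them shorter, mean GC content and mean log2 Cy3/Cy5 had a Pearson r of 0.85, where all steps share the same arrays and their base composition. Between 2.27% and 15.9% of windows were called higher in Cy5 in the first 12 steps. In the last 5 steps the share was 20.0% to 32.5%, and these steps averaged 34.7 to 37.6% GC.

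**Figure D3:**
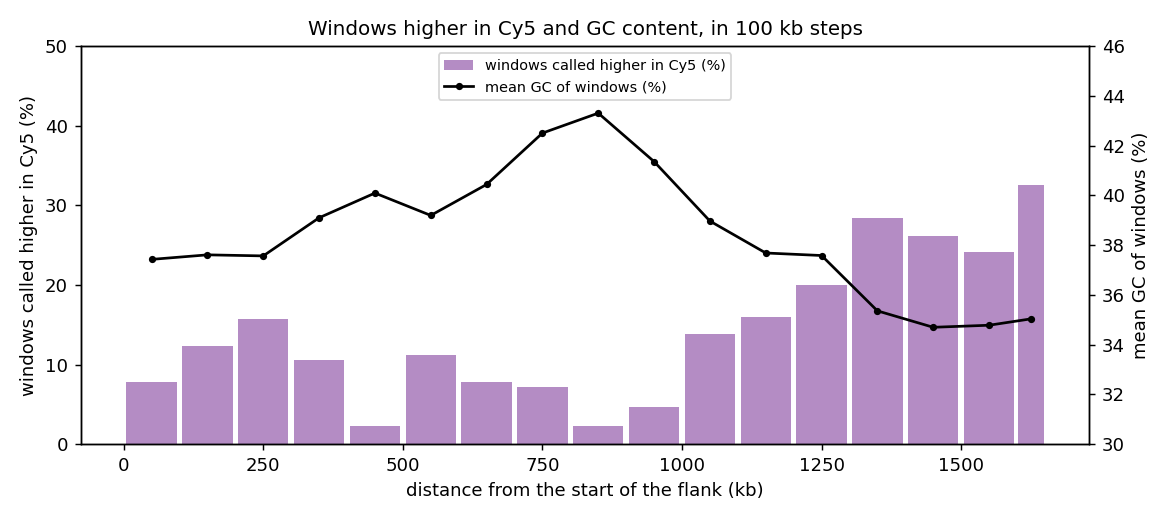
Share of 1 kb windows called higher in Cy5 (bars, left axis, %) and mean GC content of the windows (line, right axis, %, starting at 30) in 100 kb steps against the distance from the start of the flank in kb. The bars rise from 2.27% near the middle to 32.5% in the last, shorter step, where GC content is near 35%.

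Within classes of similar GC content the flank and the rest of the segment still differed. The classes are wide, and whether GC content differed between the parts within a class was not tested. In probes under 30% GC the medians were -0.55 and -0.29 on the 2 arrays in the flank, and -0.43 and -0.17 in the rest. In probes of 50% GC and over they were 0.12 and 0.054 against 0.18 and 0.097. In all 6 classes the flank was lower on both arrays, with differences of -0.19 to -0.043. After a correction for GC content, 41 flank windows (3.00%) were called higher in Cy5 against 1.09% of all windows. The Cy5 calls also rested on the variance model, since a trended and robust prior in limma called 0 of the 1365 windows higher in Cy5 (487 at an unadjusted p under 0.05) and 16 higher in Cy3. These counts cover the flank alone. The share over the whole array under that prior is not given here, so they show nothing particular to the flank.

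**Figure D4:**
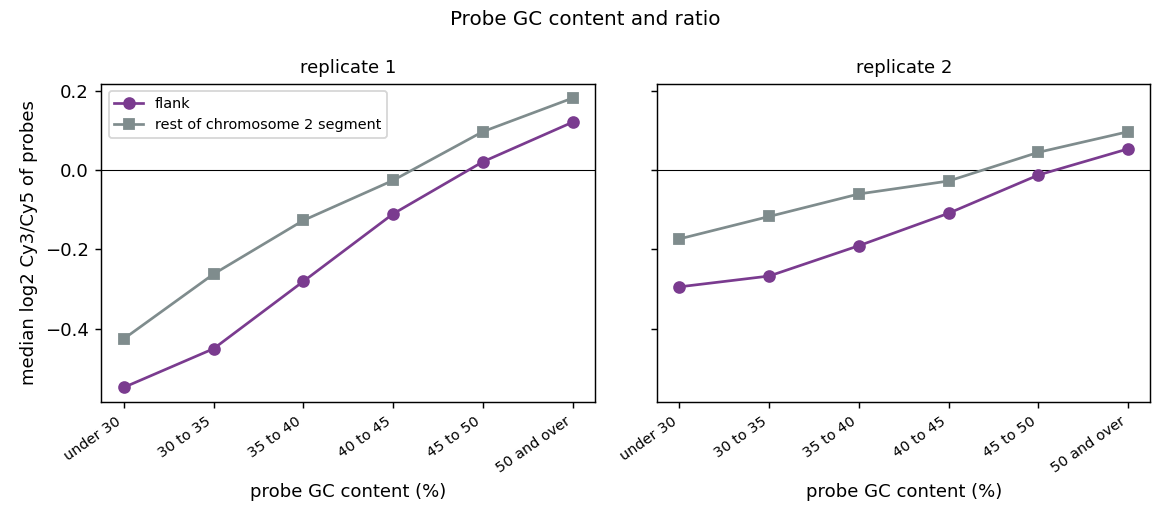
Median log2 Cy3/Cy5 of probes in 6 classes of probe GC content (%) on replicate 1 (left) and replicate 2 (right), for the flank (circles) and the rest of the tiled chromosome 2 segment (squares). Medians rise with GC content in both, and the flank lies below the rest in every class on both arrays.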

How the data were processed

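RAG cells were crosslinked, Rad21 was immunoprecipitated, and ChIP and input DNA were amplified, reamplified and hybridised together on 2 Agilent arrays. The intensity values that the authors deposited came from Feature Extraction 10.5.1.1. Per the file headers, its steps were a spatially detrended background subtraction and a linear dye scaling. Amplification and dye can both act on GC content. The 0 or 1 quality marks deposited beside them were used only to leave out spots. The log2 values that the authors deposited were made with Ringo, settings not given in the sources used here, and are smoothed. Their column medians were -0.0066 and -0.0059, and they served as an alternative. Their rows carry no probe names, and were matched to probes in the text order of probe numbers with the first 3 left out.

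Control spots and 27 outlier spots were dropped, repeated probes were averaged, and log2 Cy3/Cy5 was taken from the processed signals and set to a median of 0 on each array. Means of 1 kb windows with at least 3 probes were tested against 0 with limma 3.58.1 (R 4.3.3; lmFit, eBayes, two-sided) with Benjamini-Hochberg adjustment over 14947 windows. Region calling followed the approach of Ringo with settings chosen here. Runs of at least 3 positions, joined across gaps under 600 bp, had to have a running median (400 bp to either side, both arrays, 5 or more values) past a threshold. This threshold was the 0.99 quantile of a symmetric null built from the values below the mode. Genes are from GENCODE M1 and sequences from the genome of the same build (mm9). Current symbols came by name or synonym from RefSeq for 11 of 20 genes. Named were every region higher in Cy3, the 5 highest and 3 lowest windows, the windows nearest the threshold and the start window of every protein-coding gene. The sequence of site A was added after its values were seen. Members, lists and rules were chosen with earlier results of these data known. Alternatives changed the background correction, normalization, centring, probe filter, GC correction, window size, prior and region settings. The limma and region steps were tested on simulated data. Of 14947 simulated windows, 200 were shifted, and limma called 199 of these beside 27 false calls. Some calls at this threshold can therefore be false. The simulated windows were drawn independently around 0, so this result does not cover an offset shared by many windows, as in the flank. No result of the region test is given here. The number of arrays limits the precision, and each array is 1 flask, so slide and replicate cannot be told apart. Scripts ran under Python 3.11.15 with scipy 1.17.1, numpy 2.4.6 and pandas 2.3.3.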

Additional observations from a re-analysis of the deposited data

How the results depend on the processing

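Sites A to G kept a mean above 0 under all 8 alternative ratios, from 0.70 to 1.82. All 7 were called again under 12 of 15 alternatives. Site E was missed at a stricter null quantile and without replicate 2, and site D with a wider running median. The number of flank regions higher in Cy3 rose to 11 with normexp, 12 with loess and 16 with GC correction, and was 6 and 7 without 1 of the arrays. The region count higher in Cy5 was 0 with normexp, loess, the deposited values, GC correction or a stricter null quantile, and 1 with no background correction, without saturated probes, with a narrower or wider running median or with at least 6 positions. It was 314 at a null quantile lowered to 0.95, and 5 and 6 without 1 of the arrays. At the threshold of the Cy3 direction it was 7 at a stricter null quantile, 19 with at least 6 positions, 40 with a wider running median, 136 with mode centring and 204 at a null quantile of 0.95, against 61.

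Windows higher in Cy3 numbered 25 of 2311 at 500 bp and were between 10 and 20 otherwise. Windows higher in Cy5 numbered 319 with no background correction, 32 with loess, 425 with mode centring, 40 with the deposited values, 62 over probes well above background, 41 with GC correction, 313 of 2311 at 500 bp, 272 of 747 at 2 kb and 0 with the trended and robust prior. These Cy5 counts are for the flank alone, and among the alternatives an array-wide share is given above only for GC correction. The flank mean stayed below 0 under these alternatives, at -0.10 with normexp, -0.088 with loess, -0.29 with mode centring, -0.15 with the deposited values as well as over probes well above background, and -0.11 with GC correction, and between -0.26 and -0.18 on single arrays. Mode centring moves all values by -0.11 and -0.041 relative to the median. Pearson r between the arrays was 0.54 with no background correction, 0.39 with loess, 0.50 over probes well above background and 0.36 with GC correction. The share of sites with the motif was 28.6% for exact matches and 42.9% within 250 bp. Of 40 values for the start windows of protein-coding genes, 39 stayed on the same side of the threshold, and Dcdc5 passed it (-0.40) with no background correction. The causes of these differences were not tested. No paired analysis was possible because the labels define a single group, so that no group could be blocked against another. The ratio itself already compares the dyes within a flask.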
